A study of Rattus norvegicus with 16 samples.

Results

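The transcripts described here are those of 8 collagen chains of the vessel wall and of the collagen-binding protein SPARC, in the aging rat aorta. The members are Col1a1, Col1a2, Col3a1, Col5a1, Col5a2, Col8a1, Col12a1, Col15a1 and Sparc, 9 of the 4736 genes named on the array, and they were taken by gene symbol. They are read by 16 of the 8740 non-control probe sets, and all 16 passed the filter on low values that left 5244 probe sets. Col1a1 and Sparc each have 4 probe sets, Col3a1 has 2 and the other 6 genes have 1 each. Probe sets of one gene read the same RNA and are not replicates of each other.

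The study measured descending thoracic aorta of rats aged 3, 6, 15 and 28 months, with 4 animals per age and 1 Affymetrix rat genome array per animal. A 1 cm length of vessel was taken, so each array holds the RNA of all layers together, and the labels do not say whether the surrounding fat was removed. No treatment or altered allele is named, and neither the strain nor the sex of the rats is stated in the labels. In such whole tissue, fewer cells of a type and less RNA per cell cannot be told apart.

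Collagens are built from 3 chains wound into a triple helix. Type I collagen pairs chains from Col1a1 and Col1a2, whereas type III consists of Col3a1 chains alone, and together they form the stiff fibrils of the aortic media and adventitia. Type V chains start and regulate fibrils, type XII decorates their surface, type VIII forms networks near endothelial and smooth muscle cells, and type XV lies next to basement membranes. SPARC is a secreted protein that binds collagen and takes part in its deposition. In rodent arteries much of the collagen mRNA is made during growth, and the protein turns over slowly afterwards.

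Promoter stretches are shown for 3 members as examples of their kinds: Col1a2 of type I collagen, Col5a2 of type V collagen and Sparc, which is no collagen. RefSeq windows were found for 6 of the 9 members (Col1a2, Col5a1, Col5a2, Col8a1, Col15a1 and Sparc), on rat build GRCr8. The 250 bases before each annotated start were searched on both strands for CCAAT and, separately, for TATAAA; neither motif overlaps the other. Col1a2 held both, and the other 5 held neither, while 34.0% of all 33469 rat promoter windows of that length hold CCAAT and 12.9% hold TATAAA. In the 3 stretches below, written 5′ to 3′ along the gene, capitals mark those motifs, with ATTGG standing for CCAAT read on the opposite strand.
Col1a2, chr4:33518307-33518406, plus strand, 250 to 151 bases before the annotated start: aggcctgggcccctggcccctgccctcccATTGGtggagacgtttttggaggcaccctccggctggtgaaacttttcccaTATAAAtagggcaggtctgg
Col5a2, chr9:55090152-55090301, minus strand, 150 to 1 bases before the start: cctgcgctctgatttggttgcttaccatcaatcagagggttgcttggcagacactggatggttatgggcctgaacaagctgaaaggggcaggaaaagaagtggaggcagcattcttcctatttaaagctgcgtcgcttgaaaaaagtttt
Sparc, chr10:40038817-40038966, minus strand, 150 to 1 bases before the start: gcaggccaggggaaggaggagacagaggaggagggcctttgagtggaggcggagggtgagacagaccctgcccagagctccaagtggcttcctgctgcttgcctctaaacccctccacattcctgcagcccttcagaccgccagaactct
A match is a run of letters and not a shown binding site, and the windows without a match say nothing of the factors.

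Signals are the deposited linear intensities, scaled alike on every array, and changes are differences of log2(signal + 16) between age means, with their standard error from limma. P-values were adjusted by Benjamini-Hochberg across the 5244 probe sets tested, and 0.05 was the threshold. Markers of smooth muscle, of fibroblasts and of fat were all measured in the tissue. The mean log2 level of 14 smooth muscle markers ranged from 12.55 to 13.71 at 3 months and from 13.53 to 13.83 at 28 months, and that of 6 fibroblast markers from 11.97 to 12.24 and from 12.14 to 12.50. A fat score, the same mean over 31 adipocyte and brown fat genes, averaged 12.41 ± 0.53, 12.56 ± 0.73, 11.32 ± 1.65 and 10.86 ± 0.61 at 3, 6, 15 and 28 months in that order (SD, n = 4). The 15-month arrays split, with 12.88 and 12.60 in replicates 1 and 2 and 9.999 and 9.79 in replicates 3 and 4. The beta-actin 3′ to 5′ ratio, a measure of RNA quality, was 3.20 in 15-month replicate 4 and 3.82 in 28-month replicate 4, and 1.24 to 1.77 on the other 14 arrays.

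Col1a1, the main chain of type I collagen, was highest at 3 months and fell by 15 and 28 months on 2 of its 4 probe sets. Another was also lower and missed the threshold in the same fit, and the fourth did not pass at any age. On rc_AI231472_s_at the signals of replicates 1 to 4 were 47028, 47808, 38381 and 48906 at 3 months and 16982, 13984, 16118 and 25214 at 6 months. They were 10273, 16710, 20357 and 17182 at 15 months, and 18955, 11698, 22083 and 20840 at 28 months. Every 3-month array lay above every array of the 3 later ages, and those ages overlapped one another. The level was thus 45531 ± 4829 at 3 months and 18075 ± 4924, 16131 ± 4227 and 18394 ± 4645 at 6, 15 and 28 months (SD, n = 4).

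The log2 change of rc_AI231472_s_at from 3 months was −1.36, −1.53 and −1.34 for the ages of 6, 15 and 28 months, each with an SE of 0.25, or 2.57-, 2.89- and 2.53-fold lower. Its limma adjusted p was 0.242, 0.0251 and 0.0143 in the same order. At 6 against 3 months its unadjusted p of 4.62e-05 was the smallest of the 5244, and no probe set of the array passed there. From 6 to 28 months the difference was 0.02 with an SE of 0.25, so the ages after 3 months were not told apart.

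Z78279_g_at and Z78279_at, both made from one sequence record of Col1a1, were also lower at each later age. Signals of Z78279_g_at in replicates 1 to 4 were 20526, 24651, 20886 and 29468 at 3 months and 9325, 7937, 11930 and 17180 at 6 months. They were 6613, 6931, 8563 and 9557 at 15 months and 9104, 5444, 11582 and 12694 at 28 months, so again no later array reached the lowest 3-month one. Its log2 changes in order of age were −1.09, −1.59 and −1.35 (SE 0.27), with limma adjusted p of 1.00, 0.0286 and 0.0224.

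Z78279_at, the third Col1a1 probe set, spread more between animals of one age. Its signals at 3 months were 15711, 17797, 18106 and 29577, and at 6 months 5332, 5421, 10690 and 16096, so that 6-month replicate 4 overlapped the youngest rats. Those at 15 months were 4331, 5663, 8442 and 8696, and those at 28 months 6647, 4071, 9816 and 8970. The log2 changes of −1.23, −1.59 and −1.49 (SE 0.37) did not pass, with limma adjusted p of 1.00, 0.183 and 0.0623. With the hybridisation run (the replicate number) as a block the last 2 passed, with adjusted p of 0.00567 and 0.00437. The change at 28 months also passed without 6-month replicate 4 or 15-month replicate 1, with an adjusted p of 0.0306 in the lower case.

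The fourth Col1a1 probe set, M27207mRNA_s_at, did not show this difference. Its signals were 36175, 32851, 42103 and 18706 at 3 months, 27238, 23796, 23520 and 41778 at 6 months, 19660, 20004, 31604 and 33768 at 15 months, and 28080, 16631, 40892 and 36632 at 28 months. All 4 ages overlapped, and the lowest 3-month array, replicate 4, was the highest on the other 3 probe sets. The log2 change at 28 months was −0.10 with an SE of 0.31 (adjusted p = 0.870).

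**Figure D1:**
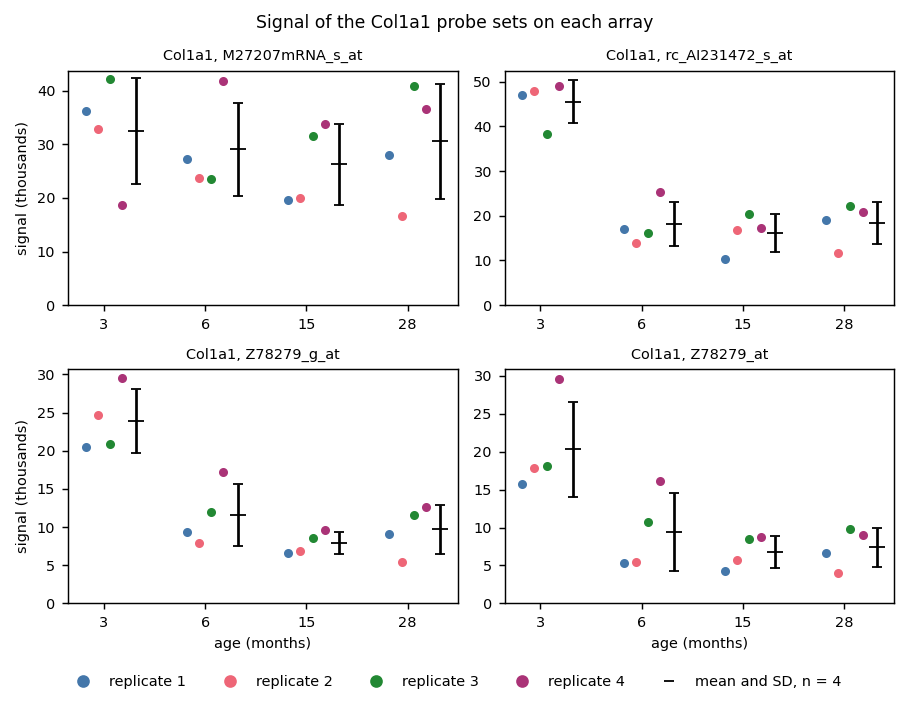
Signal of the 4 Col1a1 probe sets (vertical axes, linear scale from 0) against age in months, 1 point per array coloured by replicate number, with the mean and SD of 4 arrays beside them. On rc_AI231472_s_at and Z78279_g_at all 3-month points lie above all later points, on Z78279_at 6-month replicate 4 overlaps them, and on M27207mRNA_s_at the ages overlap.

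The disagreement was examined as the change, between 3 and 28 months, of each probe set's log2 value minus that of M27207mRNA_s_at, the brightest of the gene. The mean difference for rc_AI231472_s_at went from 0.54 ± 0.63 to −0.69 ± 0.19 (SD, n = 4), a change of −1.24. For Z78279_g_at the change was −1.25 and for Z78279_at −1.39. In each of the 3 pairs the 3-month and 28-month arrays did not overlap, and the exact permutation test gave p = 0.0286 (2-sided), which is the lowest value possible with 4 arrays in each group. Adjusted over the 11 comparisons of this kind the value was 0.0786, which misses the threshold. With 4 arrays per age an adjusted value under 0.05 could be reached only if most of the 11 had that lowest p. The miss is therefore a limit of the test and does not weigh the difference. The change was present on both hybridisation days, between −0.997 and −1.01 on day 1 and between −1.48 and −1.76 on day 2. The changes kept their sign without any 1 of the 8 arrays, with ranges of −1.46 to −0.96, −1.45 to −0.90 and −1.57 to −0.95. Without any 1 of the 4 arrays of 28 months the arrays of the 2 ages still did not overlap. The exact permutation p was then 0.0571 for the pairs of rc_AI231472_s_at and Z78279_g_at, and 0.0286 for that of Z78279_at. With groups of unequal size this test can give either value without any overlap, so these values do not measure dependence on an array.

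The Col1a1 calls depended on single arrays. At 28 months rc_AI231472_s_at missed the threshold without 3-month replicate 1, 3-month replicate 2 or 28-month replicate 1, with adjusted p of 0.0544, 0.0514 and 0.0540, while its log2 change stayed between −1.44 and −1.14. Z78279_g_at missed it without the same 3 arrays or 28-month replicate 2, with adjusted p of up to 0.0827. Without these arrays in that order 0.191%, 0.439%, 0.172% and 0.629% of all probe sets were called, against 1.28% with all 16 arrays. At 15 months 0.0953% of all probe sets were called with all 16 arrays. Without any one of the 8 arrays of 3 and 15 months 0 member probe sets were called, and 0% to 0.0572% of all probe sets. Without 6-month replicate 3 or 28-month replicate 1 it was 1 member probe set, and 0.0763% of all. Without the 2 arrays of high actin ratio 0 were called, and 0% of all. Between 28 and 3 months rc_AI231472_s_at differed by −1.67 on day 1 and −1.01 on day 2 (adjusted p 0.00655 and 0.361). Those fits, with 2 arrays per age, called 13.3% and 0% of all probe sets. Z78279_g_at differed by −1.67 and −1.03 in them.

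Over all members, 0 of 16 probe sets passed at 6 against 3 months, where 0% of the array passed, and 8 had an unadjusted limma p under 0.05 against 151 of 5244. At 15 against 3 months 2 were lower, where 0.0763% of the array was called lower, and at 28 against 3 months 2 were lower, where 0.229% was. With the replicate block 3 were lower in each, where 0.114% and 5.7% of the array were. Without the block, limma called 0 members at 15 against 6, 28 against 6 and 28 against 15 months, where 0.0191%, 0.782% and 0% of the array were called, and 0 had an unadjusted p under 0.05 there. The moderated F test over the 4 ages called 2 of 16 and 0.648% of the array, and with the block 3 of 16, adding Z78279_at, and 5.97%. Each member probe set counted here as called reads Col1a1, 1 of the 9 genes.

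Most member probe sets had lower means after 3 months. Of the 16 probe sets 13, 14 and 14 had a lower mean at 6, 15 and 28 months than at 3 months, against 54.7%, 48.0% and 44.8% of all probe sets tested. The median log2 difference was −0.61, −0.68 and −0.44, while that of the whole array was −0.03, 0.02 and 0.06. All 4 later arrays lay below all 4 of 3 months for 3 of 16 at 6 months (1.16% of the array), 7 at 15 months (1.32%) and 7 at 28 months (7.3%). No member had all 4 later arrays above, as 0.42%, 1.66% and 10.5% of the array had. The 3 comparisons share the 3-month arrays.

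**Figure D2:**
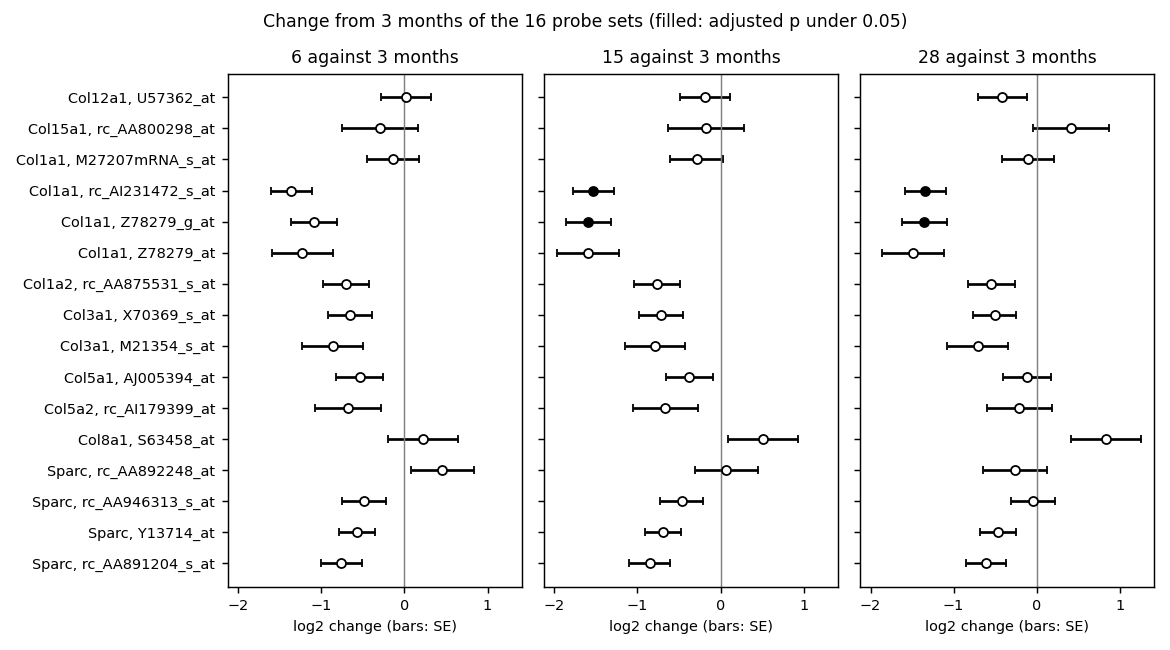
Difference from 3 months of each probe set on the log2(signal + 16) scale (horizontal axis, bars SE from limma) at 6, 15 and 28 months in 3 panels. Filled points, those with an adjusted p under 0.05, are Col1a1 rc_AI231472_s_at and Z78279_g_at at 15 and 28 months.

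Col1a2, the partner chain of type I collagen, lay lower than at 3 months without passing the test. Its signals were 28266, 28526, 25719 and 32407 at 3 months and 14886, 11737, 20068 and 27357 at 6 months. They were 9917, 16219, 21054 and 23764 at 15 months and 18602, 15160, 21742 and 24150 at 28 months. The 3-month arrays stood above all of 15 and 28 months, while 6-month replicate 4 lay among them. The log2 changes were −0.70, −0.76 and −0.55 at 6, 15 and 28 months (SE 0.28), with limma adjusted p of 1.00, 0.604 and 0.256.

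The 2 chains of type I collagen were compared as a difference on each array. Col1a1, averaged over its 4 probe sets, minus Col1a2 went from −0.01 ± 0.10 at 3 months to −0.26 ± 0.14, −0.50 ± 0.22 and −0.54 ± 0.26 at 6, 15 and 28 months (SD of log2 differences, n = 4). Between 3 and 28 months the change was −0.53, with exact permutation p = 0.0286 and no overlap. After adjustment it missed the threshold, at 0.0786, under the limit of this test given above for the Col1a1 probe sets. Without any 1 of the 4 arrays of 3 months the change was −0.56 to −0.48 and the ages still did not overlap. The exact permutation p was then 0.0571, a value that groups of unequal size can give without overlap. The change was −0.67 on day 1 and −0.39 on day 2. The Col1a1 average includes M27207mRNA_s_at.

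Col3a1, the only chain of type III collagen, had lower means at the later ages and did not pass the test either. On X70369_s_at the signals were 38746, 35812, 34710 and 44728 at 3 months and 18844, 17666, 27570 and 38345 at 6 months. They were 13645, 23186, 30481 and 30499 at 15 months and 24552, 26553, 28931 and 27853 at 28 months. All arrays of 28 months, at 26972 ± 1884, and of 15 months, at 24453 ± 7986 (SD, n = 4), lay below those of the youngest rats. Its log2 changes were −0.65, −0.72 and −0.51 (SE 0.26, limma adjusted p at 28 months 0.257).

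The other Col3a1 probe set, M21354_s_at, had log2 changes of −0.86, −0.79 and −0.71 (SE 0.36), with 12884 to 18226 at 3 months and 5486 to 12643 at 28 months. The difference between the 2 Col3a1 probe sets changed by −0.20 between 3 and 28 months (exact permutation p = 0.714), and by 0.080 without 28-month replicate 4. Col1a1 minus Col3a1 changed by −0.46 (exact permutation p = 0.2), and by −0.70 without 28-month replicate 4 (exact permutation p = 0.0286). That p, not adjusted, was under 0.05 without 1 of the 4 arrays of 28 months and 0 of the 4 of 3 months. Col1a2 minus Col3a1 changed by 0.07 (exact permutation p = 0.857), and by −0.16 without 28-month replicate 4. On all 8 arrays neither change passed.

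Col5a1 and Col5a2, the type V chains that regulate fibril width, had lower means at 6 and 15 months and means near the 3-month level at 28 months. No difference between ages passed for either chain in the fit of ages only. Col5a1 signals were 2795, 4449, 3252 and 5830 at 3 months, 2349, 2139, 2580 and 4055 at 6 months, 2140, 2244, 4136 and 4128 at 15 months and 4002, 3055, 3878 and 3581 at 28 months. Its log2 changes of −0.54, −0.38 and −0.12 (SE 0.28) did not pass. For Col5a2 the arrays of 3 months read 3624, 3581, 3813 and 8076, those of 6 months 2033, 1762, 3008 and 5592, those of 15 months 1747, 1861, 4253 and 4537, and those of 28 months 4453, 3011, 4181 and 3990. The ages overlapped for both genes, and 3-month replicate 4 was the highest array of each. The log2 changes of Col5a2 were −0.68, −0.66 and −0.21 (SE 0.39), and without 3-month replicate 4 the last was 0.075. The difference between the chains changed by 0.09 between 3 and 28 months (exact permutation p = 0.629), and by 0.26 without 3-month replicate 2 (exact permutation p = 0.0286). That p, not adjusted, was under 0.05 without 1 of the 4 arrays of 3 months and 0 of the 4 of 28 months.

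Col15a1, a collagen of the basement membrane zone, and Col8a1, a network collagen, were the members with higher means at 28 than at 3 months. Col15a1 signals were 2737, 2877, 3765 and 9750 at 3 months and 2231, 2412, 4762 and 5004 at 6 months. They were 2440, 3040, 3303 and 7317 at 15 months and 3021, 4482, 8038 and 8347 at 28 months. Within each age replicate 4 was the highest, and the ages overlapped throughout. Against 3 months the log2 change at 28 months was 0.41 with an SE of 0.46 (limma adjusted p = 0.625).

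Against 6 months Col15a1 was 0.70 higher on the log2 scale at 28 months, or 1.63-fold, with an SE of 0.46 and an adjusted p of 0.336. It was higher in 4 of 4 hybridisation runs, and with the run as a block the SE was 0.21 and the adjusted p 0.0380, in a fit that called 9% of the array higher. A fit that included the fat score gave −0.091 (SE 0.43), and one with both the fat score and the run gave 1.01 (SE 0.30, adjusted p 0.664).

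Col8a1 was dim. Its signals were 150, 415, 320 and 347 at 3 months, 511, 113, 411 and 550 at 6 months, 478, 343, 496 and 375 at 15 months, and 760, 591, 545 and 317 at 28 months. Replicate 4 at 28 months lay among the 3-month arrays and the other 3 above them. The log2 change at 28 months was 0.83 with an SE of 0.42 (limma adjusted p = 0.249). Col12a1, the fibril-associated chain, was the dimmest member, at 180 to 188 on all 4 arrays of 3 months and 98 to 209 at 28 months. Its log2 changes of 0.02, −0.19 and −0.41 (SE 0.30) did not pass.

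**Figure D3:**
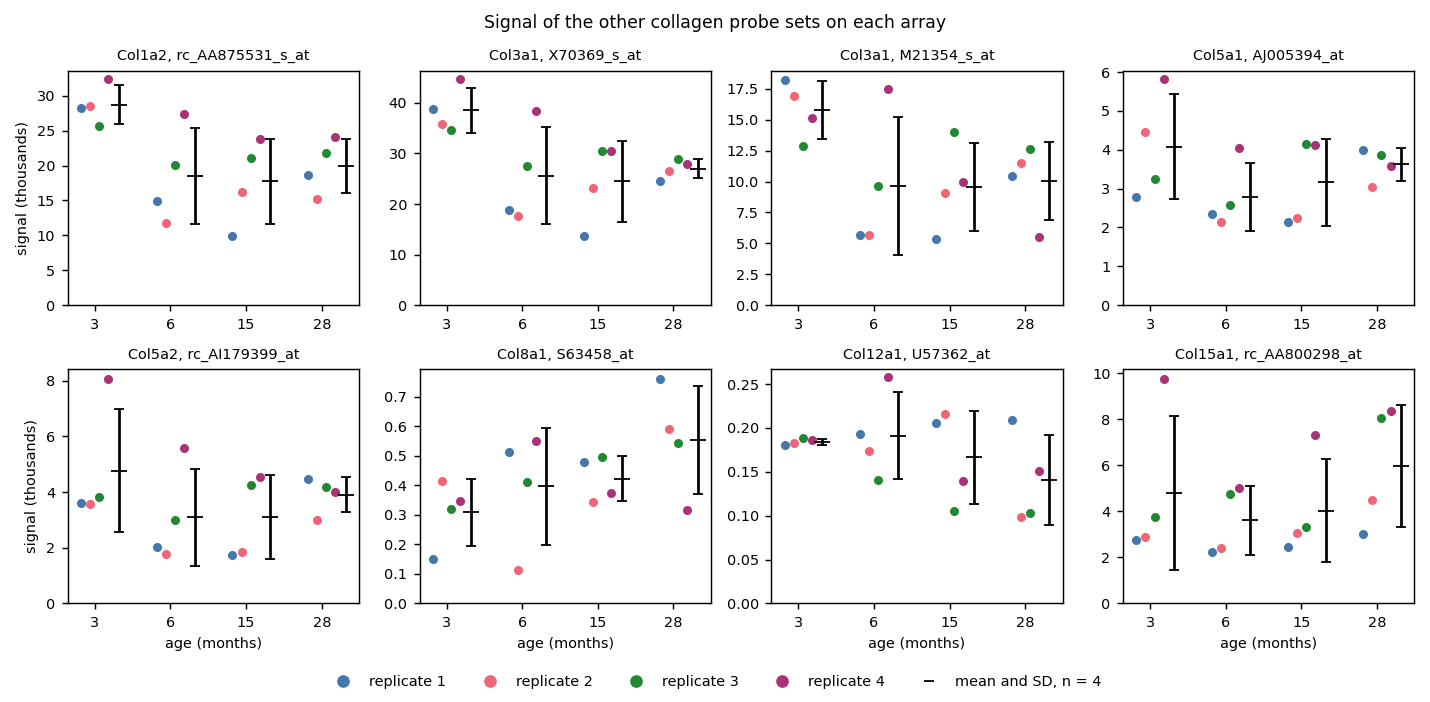
Signal of the 8 probe sets of the other 7 collagen genes (vertical axes, linear scale from 0, a scale of its own in each panel) against age in months, 1 point per array coloured by replicate number, with the mean and SD of 4 arrays. The 3-month points of Col1a2 and Col3a1 lie above those of 28 months, while the ages of Col5a1, Col5a2, Col8a1, Col12a1 and Col15a1 overlap.

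Sparc had lower means at 6 and 15 months than at 3 months on 3 of its 4 probe sets, without passing the test, and the brightest probe set did not follow them. At 28 months rc_AA946313_s_at, 1 of the 3, was near its 3-month level. On Y13714_at the signals were 25664, 26486, 22991 and 29381 at 3 months and 16656, 13273, 18516 and 22837 at 6 months. They were 11758, 16040, 16222 and 22000 at 15 months and 18886, 14262, 19443 and 23931 at 28 months. All arrays of 6 and 15 months lay below those of 3 months, and 28-month replicate 4 lay just above the lowest of them. The log2 changes were −0.57, −0.69 and −0.47 (SE 0.21), with a limma adjusted p of 0.213 at 28 months.

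On rc_AA891204_s_at the log2 changes were −0.76, −0.85 and −0.61 (SE 0.25, adjusted p 0.177 at 28 months), with 12523 to 16084 at 3 months and 7706 to 10282 at 28 months. On rc_AA946313_s_at they were −0.49, −0.47 and −0.04 (SE 0.26), so the 28-month mean of 25235 was close to the 26340 of 3 months. The brightest probe set, rc_AA892248_at, read 56614, 13967, 51654 and 38052 at 3 months and 65414, 59584, 47846 and 29619 at 6 months. It read 52925, 49926, 25051 and 28561 at 15 months and 27614, 33754, 29812 and 27045 at 28 months. Replicate 2 at 3 months was the lowest of its 16 values, and its log2 change at 28 months was −0.26 (SE 0.38).

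Between 3 and 28 months, rc_AA946313_s_at, Y13714_at and rc_AA891204_s_at minus rc_AA892248_at changed by 0.22, −0.21 and −0.35. The exact permutation p-values were 0.771, 0.771 and 0.657, and without 3-month replicate 2 the last 2 changes were 0.25 and 0.15. Of the 7 comparisons between probe sets of one gene and 4 between chains, 3 and 1 had an exact p under 0.05 and 0 passed after adjustment over the 11. A pass there would have needed most of the 11 at the lowest p possible.

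**Figure D4:**
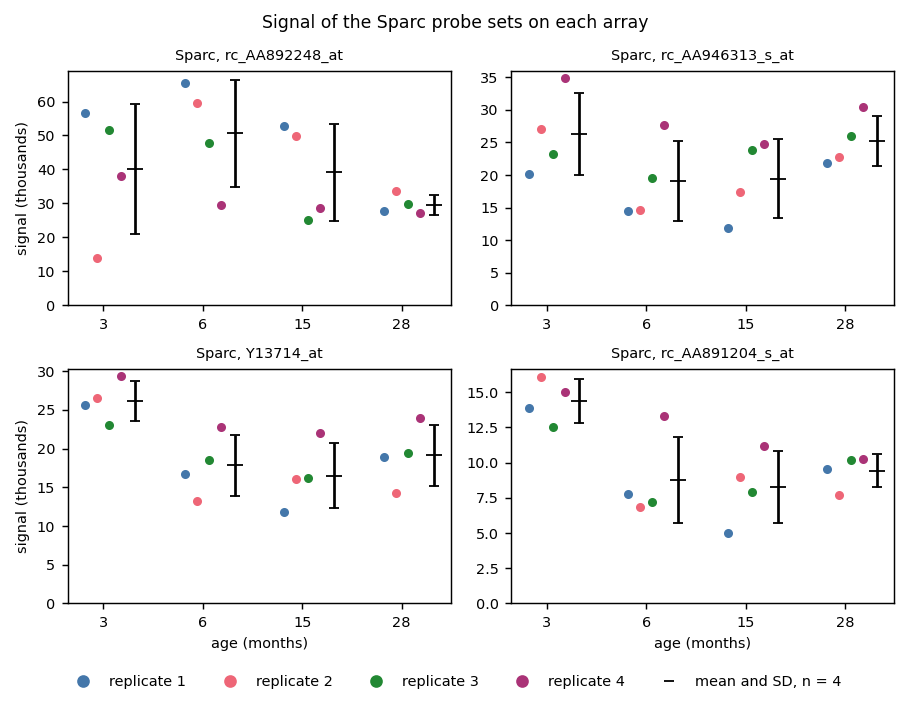
Signal of the 4 Sparc probe sets (vertical axes, linear scale from 0) against age in months, 1 point per array coloured by replicate number, with the mean and SD of 4 arrays. On Y13714_at all 6- and 15-month points lie below the 3-month points, whereas on rc_AA892248_at the 3-month points run from 13967 to 56614.

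Arrays of one age ranked alike over many members. Replicate 4 was the highest of its age on 10, 15, 10 and 6 of the 16 probe sets at 3, 6, 15 and 28 months. Replicate 1 was the lowest at 15 months on 13 of 16, and replicate 2 the lowest at 6 and at 28 months on 10 each. With age in the fit, the log2 change per unit of fat score was −0.35 for Col1a2, −0.31 for Col3a1 X70369_s_at, −0.53 for Col5a2 and −0.47 for Col15a1. The coefficient passed the threshold on 12 of the 16 probe sets of the members, and on 37.2% of the array. It was positive for Sparc rc_AA892248_at, at 0.36 (adjusted p = 0.0345), and negative for the other 11.

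More members were called lower once the fat score was in the fit. At 28 against 3 months 6 passed, where 0.191% of the array was called lower: Col1a1 rc_AI231472_s_at at −1.68, Z78279_g_at at −1.76 and Z78279_at at −2.13, Col1a2 at −1.08 (adjusted p = 0.0250), Col3a1 X70369_s_at at −0.99 (0.0308) and Sparc Y13714_at at −0.82 (0.0361). At 6 months rc_AI231472_s_at passed with an adjusted p of 0.0190, the one probe set called lower on the array (0.0191%). When the run was added to that fit, limma called 0 members at 28 months, with an adjusted p of 0.0730 for Col1a1 Z78279_g_at, and 0% of the array was called lower. The fat score differs with age, so its share in an age difference cannot be told apart from age in these 16 arrays.

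**Figure D5:**
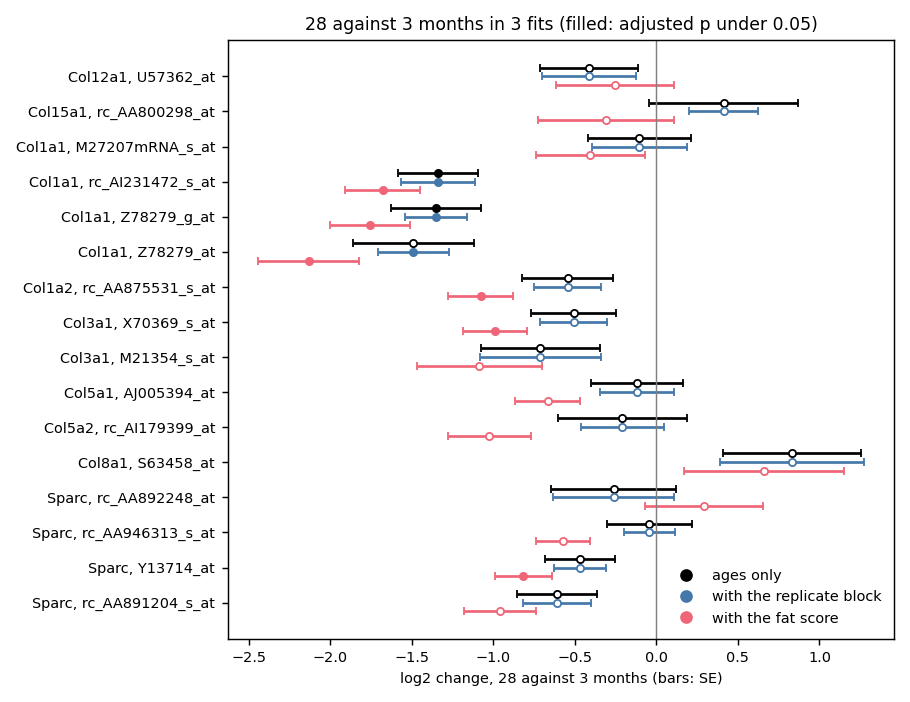
Difference between 28 and 3 months on the log2 scale (horizontal axis, bars SE) of the 16 probe sets in 3 limma fits: ages only, with the replicate block, and with the fat score as a term. Filled points have an adjusted p under 0.05: 2, 3 and 6 of 16 in these fits.

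The enzymes that hydroxylate, fold, trim and crosslink collagen chains were measured for 10 of 35 listed genes, Lox, Loxl1, P4ha1, P4hb, Pcolce, Plod1, Plod2, Plod3, Ppib and Serpinh1. At 6 against 3 months 9 of the 10 had a lower mean, with a median log2 difference of −0.24 against −0.03 for the array. At 28 months 8 of 10 had a higher mean, with a median of 0.29 against 0.06, and 0 passed. Plod2, a lysyl hydroxylase of collagen crosslinks, was 1.13 higher (adjusted p = 0.206; 0.0406 with the replicate block). Of 26 other listed collagens Col10a1 and Col4a5 were measured, and neither passed.

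The proteins that bind collagen and organise fibrils had higher means at 28 months. Of 31 listed genes 14 were measured, 13 had a higher mean than at 3 months and 4 rose past the threshold, where 1.05% of the array did, with a median log2 difference of 0.82. Comp, a cartilage and fibril matrix protein, rose by 2.58 (adjusted p = 0.00678) and Postn, periostin, by 1.71 (0.00876). Fn1, fibronectin, rose by 1.58 (0.0298), and Bgn, the proteoglycan biglycan, by 0.92 (0.0494), the last named after its value was seen. Without or with the replicate block, under which 6.56% of the array was called higher, 8 passed, and these include Fmod, which encodes fibromodulin (1.33, adjusted p 0.0989 without and 0.0404 with it), Itga1, a collagen receptor subunit (1.05, 0.0867 and 0.0130), and the SPARC relative Sparcl1 (0.97, 0.110 and 0.0234).

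The genes most like the mean of the 7 probe sets of Col1a1, Col1a2 and Col3a1 were sought among 4334 named probe sets. Over the 16 arrays the highest Pearson correlation was that of Eln, elastin, the other main fibre protein of the aortic wall, at 0.86. Next came Pros1 (0.80), C1qtnf6 (0.78), S100a10 (0.78), Emb (0.75) and Lox (0.75), the enzyme that crosslinks collagen and elastin. This is Lox probe set rc_AI234060_s_at, with a log2 difference of −0.34 at 28 against 3 months, whereas the Lox probe set read for the enzyme list, S66184_s_at, gave 0.19, and neither passed. Eln itself was −0.61 at 6 months and −0.53 at 28 months against 3 months (adjusted p 1.00 and 0.133). After centring on each age mean, which leaves differences between animals of one age, the highest were Glg1 (0.96), Myl12b (0.92), Nf1 (0.92), Gstm5 (0.90), Man1a1 (0.90) and Grb2 (0.90), and none of the first 6 was among them. The points of each correlation share their array and its scaling, and leaving out 1 array kept 2 to 6 of the first list and 2 to 5 of the second.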

How the data were processed

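Aorta RNA of 16 rats, 1 array each, was measured. The deposited table gives intensity values, 1 linear signal per probe set and array, made with MAS5 per the submitters' processing notes. The settings of MAS5 were not stated. Deposited signals had equal trimmed means (1001.7 to 1002.0), so no scaling was added. Depth does not apply to arrays; their number limits the precision. The array records, a deposited file type of unit "other", gave hybridisation day, station, chip lot and rat (16 different rats).

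Values were log2(signal + 16), so changes of dim probe sets are understated. Control probe sets and those with a mean under the 40th percentile were left out. All 16 arrays were fitted with limma 3.58.1 in R 4.3.3 (eBayes with trend), 1 mean per age, 2-sided, Benjamini-Hochberg over 5244 probe sets. Differences between probe sets or chains were tested by exact permutation, adjusted over 11. Each gene of a list is read by its brightest probe set. Named genes are all members, up to 6 genes per list past the threshold at 28 against 3 months without or with the block, and the 6 most alike. The members and lists were chosen with earlier results of these data known. In the array records the 4 arrays of each replicate number, 1 per age, share day, station and chip lot. Each number was therefore taken as 1 hybridisation run, which pairs arrays by run. Deviations of same-numbered arrays correlated at a median of 0.172 over 24 pairs, 13 of them over 0.1. Replicates 1 and 2 were run on day 1, 3 and 4 on day 2. On simulated data with 200 of 5244 probe sets changed, the fit recovered 38% at a log2 change of 1, 67% at 1.5 and 93.5% at 2 for 28 against 3 months. Of its calls 9.5%, 5.6% and 5.6% were false in that order. The simulated noise was drawn for each probe set separately, whereas in the data the fat score coefficient passed on 37.2% of the array. Alternatives covered pseudocount, filter, normalization, block, day, lot, fat score, RNA quality and each array left out. A comment on the amount of cRNA stands in the records of 15-month replicates 2 and 4 and 28-month replicates 3 and 4. No array of 3 or 6 months has it, its meaning is not stated, and its effect was not tested.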

Additional observations from a re-analysis of the deposited data

Results flagged for a closer look

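In 2 of the 64 groups of 4 arrays examined (16 probe sets at 4 ages), 1 array stood far from the other 3 for the width of its group. Chance flags about 1 in 20 such groups. For Col1a1 rc_AI231472_s_at at 3 months, replicate 3 was low at 38381 against 47028 to 48906 in the others. The gap was 0.838 of the whole range on the log2(signal + 16) scale, and this array still lay above every array of the later ages. For Col5a2 at 3 months, replicate 4 was high at 8076 against 3581 to 3813, a gap of 0.923 of the range on that log2 scale.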

How the results depend on the processing

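The log2 changes of Col1a1 rc_AI231472_s_at, Z78279_g_at and Z78279_at from 3 months stayed negative at each later age under every alternative run. The count of called member probe sets moved as follows, with the share of the array called by the same fit in brackets. At 6 against 3 months it was 0 (0%), and 1 with the fat score (0.0191%). At 15 against 3 months it was 2 (0.0953%), and 1 with quantile normalization (0.0763%). It was 0 with the 2 ages alone, on day 1 or day 2 alone, or without the 2 arrays of high actin ratio (0% each). With the fat score it was 9 (0.324%), and leaving out 1 array 0 to 2 (0% to 0.133%). At 28 against 3 months it was 2 (1.28%), and 5 with the 2 ages alone (10.2%), 0 on day 2 alone (0%) and 6 with the fat score (0.744%). It was 0 with the fat score and the block (0.0953%), and 0 to 3 leaving out 1 array (0.172% to 2.56%). At 28 against 6 months it was 0 (0.782%), and 1 with the replicate block (17.4%) and 2 on day 1 alone (24.0%). At 28 against 15 months it was 0 (0%), and 1 on day 1 alone (9.80%). The F test called 2 (0.648%), and 1 with no filter (0.206%), 7 on day 1 alone (13.9%), 0 on day 2 alone (0%) and 4 with the fat score (0.191%). It called 0 without the 2 arrays of high actin ratio (0%), and 0 to 3 leaving out 1 array (0.0381% to 1.70%). Single days hold 2 arrays per age, and the cause of the other moves was not tested. The replicate block changed no member's call other than those given beside the results.

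Signs turned in these cases, none of them called. At 6 against 3 months: Col12a1 −0.014 with the fat score and block (leaving out 1 array −0.13 to 0.14), Col1a1 M27207mRNA_s_at 0.16 on day 2 (−0.38 to 0.0068), Col8a1 −0.039 on day 1 (−0.067 to 0.72), Sparc rc_AA892248_at −0.24 on day 2, and Col15a1 (−0.49 to 0.12). At 15 against 3 months: Col12a1 0.20 on day 1 and 0.041 with the fat score and block, Col15a1 0.025 with them (−0.50 to 0.24), M27207mRNA_s_at 0.22 on day 2, and rc_AA892248_at −0.73 on day 2 (−0.38 to 0.30). At 28 against 3 months: Col15a1 −0.31 with the fat score, M27207mRNA_s_at 0.46 on day 2 (−0.35 to 0.16), Col5a2 0.023 on day 1 (−0.32 to 0.075), Col5a1 (−0.28 to 0.072), rc_AA946313_s_at (−0.16 to 0.10), and rc_AA892248_at 0.12 on day 1, 0.29 with the fat score and 0.55 with the block too. At 28 against 6 months Col15a1 was −0.091 with the fat score. Among differences of probe sets and chains: Col3a1 0.080 without the high-actin arrays (−0.30 to 0.080), rc_AA946313_s_at minus rc_AA892248_at −0.19 on day 1 (−0.13 to 0.69), Y13714_at 0.37 (−0.45 to 0.25) and rc_AA891204_s_at 0.22 (−0.60 to 0.15) minus the same on day 2, Col5a1 minus Col5a2 −0.036 on day 1 (−0.0025 to 0.26), and Col1a2 minus Col3a1 −0.15 on day 1 and −0.16 without the high-actin arrays (−0.16 to 0.23). Of the 7 differences between probe sets, 3 had an exact p under 0.05, 1 without the high-actin arrays and 1 to 3 leaving out 1 array; of the 4 between chains it was 1, with 2 and 0 to 2. Leaving out an array of 3 or 28 months makes the groups unequal, and pairs without overlap then had an exact p of 0.0286 or 0.0571. A single day (2 against 2 arrays) and the replicate block (4 pairs) cannot reach 0.05 in an exact test and have values only.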
